A study of Mus musculus with 4 samples.

Results

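The genes described here lay near the floor of the array in control mouse liver and stood well above it on both arrays of Gdown1 knockout liver. They were chosen from the same KO and FF values that are given below. A gene entered when both FF arrays lay under a log2 value of 3.2 and both KO arrays lay at least 0.8 above the higher FF array. Each gene was read from its brightest probe set with a single symbol, and 11 genes that met both thresholds were left out by name, among them cytochrome P450 and ABC transporter genes. This left 28 of 29432 genes. Since the choice rests on the KO and FF values, the differences below describe the 28 genes and test nothing about them.

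Liver RNA of 4 untreated C57BL/6 mice, aged 8 weeks and killed around midday, was measured on Affymetrix MoGene 2.0 ST arrays, with 2 arrays in each group. The KO group is a knockout of Gdown1, the product of Polr2m, and the FF group is its control. The header of the authors' deposited table names the groups Alb-cre and f/f. Albumin-driven Cre is commonly used to delete a floxed gene in hepatocytes, and since no mice with Cre and an intact Gdown1 were measured, effects of Cre and of the deletion cannot be told apart. The labels call the arrays of a group biological replicates. Whole liver also holds bile duct, stellate, endothelial and Kupffer cells, and in bulk tissue fewer cells of a type and less RNA per cell cannot be told apart.

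Gdown1 binds RNA polymerase II and, in biochemical work, blocks the binding of initiation and termination factors, which restrains the polymerase. Genes that a tissue keeps silent are usually those of other cell types, of the dividing cell or of a stress response. p53, the transcription factor of the DNA damage response, is known to switch on arrest and death genes, and Gtse1 and Ckap2, both among the 28 genes, are known p53 targets.

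The targeted gene Polr2m lay at 6.35 and 6.18 on the KO arrays, against 7.35 and 7.38 on the FF arrays, and fell by 1.10 ± 0.12 on the log2 scale (limma standard error, adjusted p = 0.0215). Its KO and FF values did not overlap. Limma, a linear model fitted to all 29432 genes with Benjamini-Hochberg adjustment, called 293 genes higher in KO (0.996%) and 229 lower (0.778%) at an adjusted p under 0.05. With any single array left out it called 0 genes, while 3364 to 3958 genes had an unadjusted p under 0.05. The array medians ran from 2.88 to 2.92, and with so few arrays every value is imprecise.

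The 28 genes had a median log2 difference, KO minus FF, of 1.50, against -0.02 over all genes. Their KO means ran from 3.29 to 5.46 with a median of 4.44, and their FF means from 2.22 to 3.13 with a median of 2.76. The KO arrays thus put the median gene of the group at the 71.5th percentile of all genes, where the FF arrays put it at the 45.9th. The highest of the 28 genes in KO lay at the 80.8th percentile. Probe sets differ in how strongly they bind, so these percentiles place array signals and not amounts of RNA. Olfactory receptor genes, 1127 in number and normally silent in liver, served as a background guide, their median being 1.91 and their 95th percentile 2.89. Both FF values of 15 of the 28 genes lay under that percentile, and both KO values of all 28 lay over it. With these FF values, the distance that the rule requires above the higher FF array already fixes the KO count. Nothing is therefore read from the KO count.

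**Figure D1:**
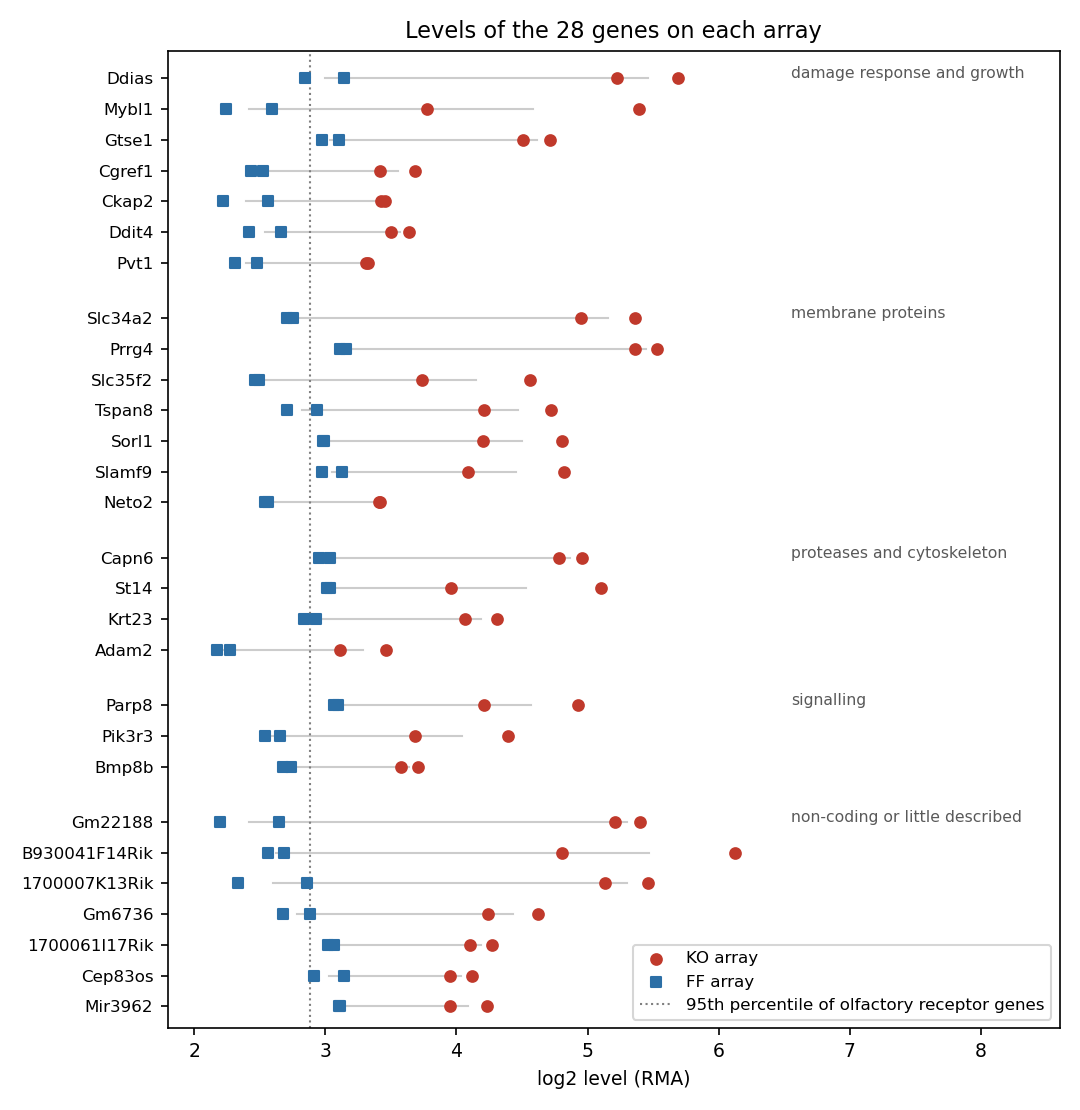
Log2 level of each of the 28 genes on the 2 KO and the 2 FF arrays, with 1 point per array. The genes are grouped by role and ordered within each group by the difference of the means. KO points run from 3.11 to 6.13 and FF points from 2.17 to 3.15, and the KO points of B930041F14Rik, Mybl1 and St14 lie more than 1 apart.

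Of the 28 genes, 24 were at least 2-fold higher in KO and 7 had a log2 difference of at least 2. Limma called 24 of them, where 0.996% of all genes were called higher. The rule used the same arrays, so nothing is read from that count. The 4 that were not called were Mybl1, St14, Pik3r3 and Slamf9, all with KO arrays more than 0.5 apart. KO replicate 1 was the higher of the KO arrays for 17 of the 28 genes, against 50.3% of all genes. The KO arrays differed by a median of 0.30 over the 28 genes, and by 0.18 over the 6806 genes whose KO means fall in the same range. The median difference of the 28 genes was 1.78 on KO replicate 1 and 1.22 on KO replicate 2, each set against the FF mean.

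Genes lay close to both thresholds on either side. Among the 15922 genes with both FF arrays under the limit, 39 met the KO threshold (0.245%), the 11 left out by name included. In the opposite direction, 21 of 15960 genes low in KO stood as far up in FF (0.132%). Nearest to the FF limit from inside were Prrg4 at 3.15, Ddias at 3.14 and Cep83os at 3.14, each by its higher FF array. Just outside it lay Emp1 at 3.21, Ehd2 at 3.22 and Ect2 at 3.23. The smallest gaps between the lower KO and the higher FF array inside the rule were 0.81 for Cep83os, 0.83 for Pvt1 and 0.83 for Adam2. Just outside it were LOC102636558 and Trim69, both at 0.80 after rounding, and Ttc39a at 0.79.

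**Figure D2:**
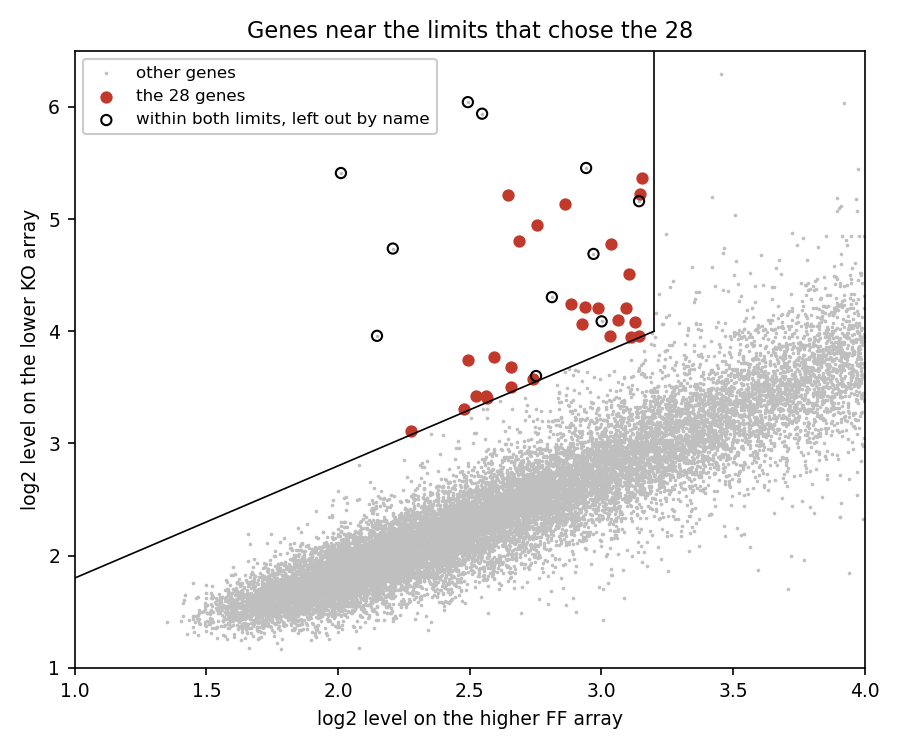
Lower KO array against higher FF array, in log2 values, with 1 point per gene and the 28 genes, the 11 genes left out by name and the other genes marked. The lines mark the FF limit of 3.2 and the gap of 0.8, and points lie close to both lines on either side.

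Among the 28 genes, 7 encode proteins or transcripts that the literature ties to the damage response or to growth. Their differences ran from 0.92 to 2.46 with a median of 1.08. Ddias, which in human cells suppresses apoptosis after DNA damage, had the largest, with 5.22 and 5.69 on the KO arrays against 2.84 and 3.14 on the FF arrays. That is a difference of 2.46 ± 0.20 (limma standard error). Gtse1, a microtubule-binding protein made in the later cell cycle that restrains p53 in human cells, had 4.72 and 4.51 in KO against 2.97 and 3.10 in FF, a difference of 1.57 ± 0.13. Ckap2, a protein of the mitotic spindle, had 3.42 and 3.45 in KO against 2.22 and 2.56 in FF, a difference of 1.04 ± 0.15. For each of these genes the KO arrays lay within 0.5 of each other.

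Ddias lies on chromosome 7 from 92857525 to 92874917, Gtse1 on chromosome 15 from 85859691 to 85876573 and Ckap2 on chromosome 8 from 22168149 to 22185819, all in GRCm38.p6. They are also the only members found in the list of p53 target genes, and so their promoters are printed. Each window is RefSeq's for GRCm38.p6 and runs from 250 bases before a transcript start to 50 bases after it, on the gene's strand. Capitals mark CCAAT in either direction, the motif of the factor NF-Y, and TTTGAA in either direction, the CHR element of cell cycle promoters.
Ddias, chr7:92874198-92874497, minus strand: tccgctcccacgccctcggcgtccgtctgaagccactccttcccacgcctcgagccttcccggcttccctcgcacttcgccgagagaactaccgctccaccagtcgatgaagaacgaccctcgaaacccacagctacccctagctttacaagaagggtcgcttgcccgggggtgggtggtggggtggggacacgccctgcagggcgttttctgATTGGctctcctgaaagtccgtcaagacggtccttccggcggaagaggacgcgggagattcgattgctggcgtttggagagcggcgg
Gtse1, chr15:85859457-85859756, plus strand: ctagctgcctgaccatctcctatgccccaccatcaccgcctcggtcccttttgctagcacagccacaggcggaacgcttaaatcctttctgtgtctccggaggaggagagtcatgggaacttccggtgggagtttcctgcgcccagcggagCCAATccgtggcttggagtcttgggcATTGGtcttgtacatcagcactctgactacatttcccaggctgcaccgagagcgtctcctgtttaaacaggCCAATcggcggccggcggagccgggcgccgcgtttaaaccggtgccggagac
Ckap2, chr8:22185770-22186069, minus strand: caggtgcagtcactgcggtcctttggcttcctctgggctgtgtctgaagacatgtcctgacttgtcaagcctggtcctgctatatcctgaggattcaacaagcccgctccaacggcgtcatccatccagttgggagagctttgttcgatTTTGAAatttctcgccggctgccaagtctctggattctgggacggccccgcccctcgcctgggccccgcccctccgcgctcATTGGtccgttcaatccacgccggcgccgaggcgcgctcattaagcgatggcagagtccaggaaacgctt

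The CCAAT motif began 37 bases before the start in Ddias, at 99, 73 and 2 bases before it in Gtse1, and 20 bases before it in Ckap2. A second Gtse1 window, for a start further into the gene and not printed, overlaps the first and had CCAAT 241 bases before its start and a p53 half-site match beginning 10 bases after it. Ckap2 also had the CHR element 101 bases before the start and a match to the p53 half-site consensus 203 bases before it. The table holds 26 promoter windows for 20 of the 28 genes, and CCAAT occurred in 11 of these (42.3%), against 37.4% of all 32851 windows. The p53 half-site occurred in 3 (11.5%, against 8.36%), in 1700007K13Rik, Ckap2 and Gtse1, and TTTGAA in 3 (11.5%, against 17.9%). GGGCGG, the GC box, occurred in 15 (57.7%, against 35.7%), and CACGTG, an E-box, in 5 of the 26, against 7.15% of all windows. TTCNNNGAA, the STAT motif, occurred in 1 (3.85%, against 8.30%) and the TATA box TATAAA in 0 (against 13.6%). All motifs were searched on both strands and may overlap, and a match describes the letters only. The windows of the 28 genes had a median GC content of 59.8%, against 52.7% over all windows, and 13 of the 26 were CpG-rich by a GC content over 55% and an observed-to-expected CpG ratio over 0.65, against 27.9% of all.

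The other 4 genes tied to damage or growth were Ddit4, Pvt1, Cgref1 and Mybl1. Ddit4, an inhibitor of mTORC1 signalling that stress induces, had 3.5 and 3.63 in KO against 2.42 and 2.66 in FF, a difference of 1.03 ± 0.14. Pvt1, a long non-coding RNA gene beside Myc, had 3.32 and 3.31 in KO against 2.31 and 2.48 in FF, a difference of 0.92 ± 0.12. Both lay just over the background guide in KO, with KO arrays close together. Cgref1, a calcium-binding protein named for slowing growth, had 3.42 and 3.68 in KO against 2.43 and 2.52 in FF, a difference of 1.08 ± 0.14. Mybl1, a Myb-family transcription factor needed for meiosis in the mouse testis, had 5.39 and 3.77 in KO against 2.25 and 2.59 in FF. Its KO arrays differed by 1.62, more than those of any other of the 28 genes, and its difference of 2.16 ± 0.50 became 2.97 without KO replicate 2 and 1.35 without KO replicate 1.

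The p53 target list shows what moved beside Ddias, Gtse1 and Ckap2. It had 35 measured genes, and of the 32 others limma called 15 higher in KO, 0 lower and 17 not at all, where 0.996% of all genes were called higher. At an unadjusted p under 0.05, which 4998 of all 29432 genes passed, 24 were higher and 0 lower. The median difference of the 32 genes was 1.16 against -0.02 over all genes. Cdkn1a, the cell cycle inhibitor that p53 induces, had 9.81 and 9.67 in KO against 4.18 and 4.70 in FF, a difference of 5.30 ± 0.19 (limma adjusted p = 0.00135). Tnfrsf10b, a death receptor, differed by 3.65 ± 0.13 (limma adjusted p = 0.00121), and Eda2r, a receptor for ectodysplasin, by 2.98 ± 0.23 (limma adjusted p = 0.00902). Those 2 receptors meet the same thresholds as the 28 genes and were among the 11 left out by name. They are counted among the 32 genes and the 15 called. Since the thresholds used the same arrays, nothing is read from the calls of these 2. Cdkn1a was not near silent in FF and so met only the KO threshold. A further list held ligands and secretory genes tied to DNA damage and cell cycle arrest. Limma called 0 of its 22 genes, and their median difference was 0.06. At an unadjusted p under 0.05, 5 of the 22 were higher and 1 lower.

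**Figure D3:**
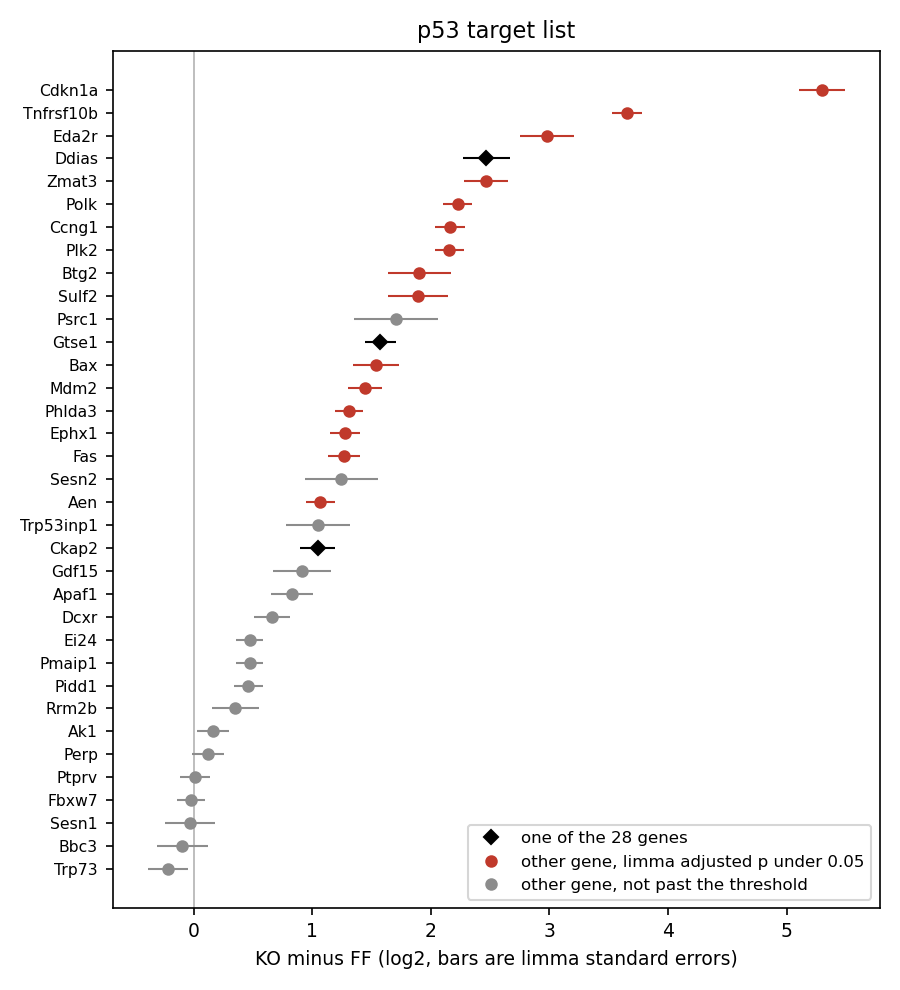
Log2 difference, KO minus FF, of the 35 measured genes of the p53 target list, with bars of 1 limma standard error and colours for members among the 28 genes, called genes and genes not called. Ddias, Gtse1 and Ckap2 lie at 2.46, 1.57 and 1.04, and the called genes outside the 28 run from 1.07 for Aen to 5.30 for Cdkn1a.

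The 7 membrane proteins had differences from 0.86 to 2.43 with a median of 1.64, and KO arrays that differed by a median of 0.51. Slc34a2, a sodium-phosphate cotransporter of lung and gut epithelium, had 5.37 and 4.95 in KO against 2.75 and 2.71 in FF, a difference of 2.43 ± 0.17. Prrg4, a transmembrane protein with a vitamin K-dependent Gla domain, had 5.53 and 5.36 in KO against 3.15 and 3.11 in FF, a difference of 2.31 ± 0.12. Slc35f2, a solute carrier, had 3.74 and 4.56 in KO against 2.50 and 2.47 in FF, a difference of 1.67 ± 0.26. Prrg4 had the evenest KO values of these, and Slc35f2 was the only one of the 7 for which KO replicate 2 was clearly the higher. Tspan8, an epithelial tetraspanin, had 4.72 and 4.21 in KO against 2.70 and 2.94 in FF. Sorl1, a sorting receptor that binds the amyloid precursor protein, had 4.80 and 4.20 in KO against 2.99 and 2.99 in FF.

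Neto2, an auxiliary subunit of kainate-type glutamate receptors, had 3.41 and 3.41 in KO against 2.56 and 2.54 in FF. Its difference of 0.86 ± 0.11 is the smallest of the 28 and among the most even. The kainate receptor subunits it partners with were not called, and Grik1, Grik2, Grik3, Grik4 and Grik5 differed by -0.12, 0.00, 0.08, -0.13 and 0.15. Of the 18 measured ionotropic glutamate receptor genes limma called 1, where it called 1.77% of all genes. The called gene was Gria3, an AMPA receptor subunit, at 2.98 ± 0.17 (limma adjusted p = 0.00498). Slamf9, a surface receptor of immune cells, had 4.82 and 4.09 in KO against 2.98 and 3.13 in FF, a difference of 1.40 ± 0.25 that limma did not call.

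The 4 protease and cytoskeleton genes ranged from 1.06 to 1.87. Capn6, a calpain that lacks the catalytic cysteine and binds microtubules, had 4.78 and 4.96 in KO against 3.04 and 2.95 in FF, a difference of 1.87 ± 0.13. Krt23, a type I keratin of epithelia, had 4.31 and 4.07 in KO against 2.93 and 2.83 in FF, a difference of 1.31 ± 0.14. It also stands in the list of bile duct markers described further on. St14, the membrane serine protease matriptase, had 5.10 and 3.96 in KO against 3.01 and 3.03 in FF, and its difference of 1.51 ± 0.35 became 0.94 without KO replicate 1. Adam2, a sperm surface protein needed for fertilisation in mice, had 3.11 and 3.46 in KO against 2.17 and 2.28 in FF, with the lowest KO value of any of the 28 genes.

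The 3 signalling genes all stood higher on KO replicate 1. Pik3r3, a regulatory subunit of phosphoinositide 3-kinase, had 4.40 and 3.68 in KO against 2.54 and 2.66 in FF, a difference of 1.44 ± 0.24. Parp8, a mono-ADP-ribosyltransferase, had 4.92 and 4.21 in KO against 3.07 and 3.09 in FF, a difference of 1.49 ± 0.24. Bmp8b, a BMP ligand known from brown fat and from germ cell formation, had 3.70 and 3.57 in KO against 2.68 and 2.74 in FF, a difference of 0.93 ± 0.12. Its close paralog Bmp8a differed by 0.09. The division of the array's probes between such near-identical genes was not checked.

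The 7 remaining genes are non-coding or little described, and they hold the largest difference of the 28. Gm22188 had 5.40 and 5.21 in KO against 2.64 and 2.19 in FF, a difference of 2.88 ± 0.18, and its symbol was not matched in the RefSeq table. B930041F14Rik, which RefSeq now lists as Fndc10, a protein with a fibronectin type III domain, had 6.13 and 4.80 in KO against 2.56 and 2.69 in FF, a difference of 2.84 ± 0.41. The protein-coding 1700007K13Rik had 5.46 and 5.14 in KO against 2.33 and 2.86 in FF, a difference of 2.70 ± 0.21. Of these genes, Gm22188 and 1700007K13Rik had KO arrays within 0.5 of each other, and B930041F14Rik did not. Gm6736 had 4.62 and 4.24 in KO against 2.68 and 2.88 in FF, and 1700061I17Rik had 4.10 and 4.27 against 3.06 and 3.02. Cep83os, a transcript of the opposite strand that lies beside Cep83 without overlap, had 3.95 and 4.12 in KO against 2.91 and 3.14 in FF.

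Mir3962, a microRNA gene on chromosome 1 from 194822001 to 194822064 in GRCm38.p6, had 3.95 and 4.23 in KO against 3.10 and 3.11 in FF, a difference of 0.98 ± 0.14. Its mature sequence and the mature sequence most like it in RefSeq are shown because they differ in the seed, bases 2 to 8, which is in capitals.
mmu-miR-3962, chr1:194822035-194822054, plus strand: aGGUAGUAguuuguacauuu
mmu-let-7g-5p, chr9:106178846-106178867, plus strand: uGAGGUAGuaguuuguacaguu
The sequences share a run of 17 bases, but it starts at base 1 of mmu-miR-3962 and at base 3 of mmu-let-7g-5p. No seed is therefore shared, and 0 of the 1738 mature entries in the table carry the seed of mmu-miR-3962. Limma called 0 of the 8 measured let-7 genes, with differences from -0.38 to 0.16, and Mirlet7g had an unadjusted p of 0.0186. The array values of these let-7 genes ran from 1.53 to 3.47. Most lay under the background guide, as did all those of Mirlet7g, so nothing is read from them. The labelling protocol covers whole transcripts, so a precursor and a mature microRNA cannot be told apart.

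The second table, made by the authors, gives group averages only, in log2. In the authors' deposited table all 28 genes were higher in Alb-cre, by 0.22 to 3.78 with a median of 1.48. Of them 22 were higher by at least 1, against 1.38% of all genes. The rule chose the genes on the same contrast, so nothing is read from these counts. The largest difference in the authors' deposited table was that of Mybl1 and the smallest that of Pvt1. The f/f average in the authors' deposited table was at or above 3.2 for 23 of the 28 genes, and it exceeded the FF mean used here by a median of 0.88, against 0.67 over all genes. Near silence in FF is thus stated for the array values only, since most of these genes lay above the limit in the authors' averages.

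**Figure D4:**
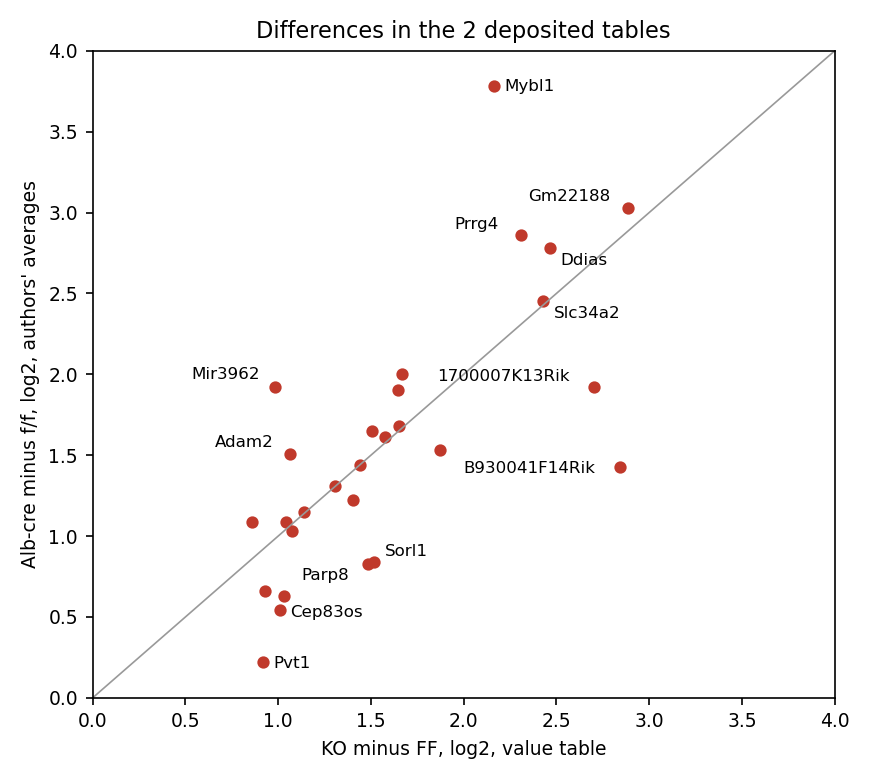
Log2 difference of the 28 genes in the authors' deposited averages, Alb-cre minus f/f, against the difference in the array values, KO minus FF. All 28 points lie above 0 on both axes, with Mybl1 at 3.78 in the authors' averages and 2.16 in the array values, and Pvt1 at 0.22 and 0.92.

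The 27 genes found in the RefSeq table lay on 15 chromosomes, with at most 3 on any 1, and the nearest pair, Bmp8b and Pik3r3, lay 6.88 Mb apart. Within 100 kb of 25 of them lay 117 other measured genes. Limma called 4 of these higher in KO and 0 lower, or 3.42%, against 1.77% of all genes. At an unadjusted p under 0.05, which 4998 of all 29432 genes passed, 18 were higher and 6 lower. The median difference of the 117 genes was 0.05.

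Scara3, a scavenger receptor, and Ptk2b, a kinase related to focal adhesion kinase, lie 73.3 and 75.4 kb from Adam2, on opposite sides, with other genes in between. The nearer Ephx2 and Gulo, 6.52 and 18.1 kb away, differed by 0.10 and -0.02 and were not called. Scara3 had 6.05 and 5.44 in KO against 3.56 and 3.97 in FF, a difference of 1.98 ± 0.24 (limma adjusted p = 0.0274). Ptk2b differed by 0.78 ± 0.12 (limma adjusted p = 0.0451). Tagln2, an actin-binding protein 21.8 kb from Slamf9, had 7.35 and 7.16 in KO against 5.59 and 5.86 in FF, a difference of 1.53 ± 0.15 (limma adjusted p = 0.0155). Vps36, an endosomal sorting protein 7.01 kb from Ckap2, had 7.63 and 7.88 in KO against 6.64 and 6.75 in FF, a difference of 1.06 ± 0.14 (limma adjusted p = 0.0301). All 4 called neighbours were above the background guide on both FF arrays, Ptk2b with 6.52 and 6.61.

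Limma called 0 of the 5 genes that overlap one of the 28, and none of these had an unadjusted p under 0.05. Cep83, which starts 11 bases from Cep83os, differed by -0.07. The next nearest genes without overlap were Prcp, 0.336 kb from Ddias, and Ttc38, 0.869 kb from Gtse1. Prcp differed by 0.69 ± 0.13 (limma adjusted p = 0.0678) and Ttc38 by 0.66 ± 0.12 (limma adjusted p = 0.0648), and neither was called. Mrps2, which overlaps 1700007K13Rik, differed by 0.07, and Nbas, in which Gm6736 lies, by -0.11. Myc, 47.6 kb from Pvt1, had 5.51 and 4.47 in KO against 7.28 and 6.16 in FF, a difference of -1.73 ± 0.46 that limma did not call (adjusted p = 0.143).

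**Figure D5:**
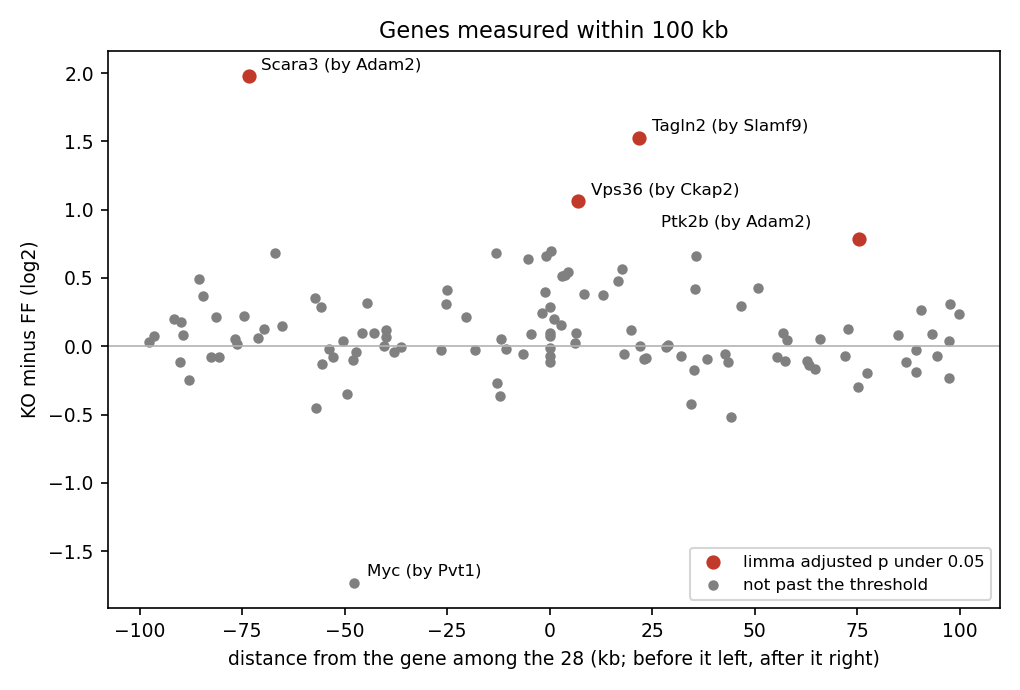
Log2 difference, KO minus FF, of 117 genes within 100 kb of the 28 genes, against their distance in kb, with the 4 genes that limma called marked. Scara3 at 1.98 is the highest and Myc at -1.73, which limma did not call, the lowest.

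Paralogs and partners of the 28 genes were examined next. Of 32 measured relatives of 17 of the genes, limma called 0 higher and 1 lower, where 0.996% and 0.778% of all genes were called. The median difference of the relatives was 0.01. At an unadjusted p under 0.05, which 4998 of all 29432 genes passed, 2 relatives were higher and 4 lower. The one called was Sort1, the sorting receptor related to Sorl1, with 6.07 and 5.70 in KO against 6.88 and 7.01 in FF, a difference of -1.06 ± 0.16 (limma adjusted p = 0.045). Myb and Mybl2, the relatives of Mybl1, differed by -0.12 and -0.03, and Slc34a1 and Slc34a3 by -0.11 and 0.13.

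None of the 28 genes stood in the lists for genes of germ line, neurons, pancreas, gut epithelium or skeletal muscle, and those lists gave 0 calls. The lists are not complete, and Adam2, Mybl1 and Slc34a2, described above by their roles in sperm, testis and gut, were not on them. At an unadjusted p under 0.05, which 4998 of all 29432 genes passed, 0 of 27 germ line genes were higher in KO and 4 lower. Of 22 neuronal genes 1 was higher and 3 lower, of 17 intestinal genes 2 were higher and 2 lower, and of 13 pancreatic and 14 muscle genes 0 passed. Under the background guide on all arrays lay 22 germ line, 12 neuronal, 10 pancreatic, 13 intestinal and 8 muscle genes. For such genes the lack of a call says little. Among fetal liver genes limma called 1 of 15, the surface protein gene Cd24a, at 1.40 ± 0.22 (adjusted p = 0.047). Among genes biased to female liver it called 4 of 29, all higher in KO, where 0.996% of all genes were called higher. Of those 4, Cyp2b13 and Prom1 met the same thresholds as the 28 genes and were left out by name, and the other 2 were Cyp2b9 and Fmo2.

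Some markers of other liver cells also differed between KO and FF, most of them without a limma call. Their part in the values of the 28 genes was not tested. Of 8 bile duct markers besides Krt23, limma called 0. At an unadjusted p under 0.05, which 4998 of all 29432 genes passed, 4 of these markers were higher. Their summed linear level was 553 and 409 in KO against 154 and 242 in FF. Sox9, a bile duct transcription factor, differed by 1.34 (limma adjusted p = 0.0596) and Epcam, an epithelial adhesion protein, by 1.65 (limma adjusted p = 0.0655). The defining bile duct keratins Krt7 and Krt19 differed by 0.42 and 0.50, and Cftr, a chloride channel, lay under the background guide on all arrays.

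All 10 Kupffer cell markers had a higher mean in KO and 0 were called, with 6 higher at an unadjusted p under 0.05. They summed to 2252 and 1449 in KO against 1022 and 1097 in FF, with KO replicate 1 the higher of the KO arrays. Limma called 4 of 10 stellate cell and fibroblast markers higher, where 0.996% of all genes were called higher. Their sums were 2781 and 2314 in KO against 1458 and 1292 in FF. The hepatocyte markers summed to 29287 and 29851 in KO against 33155 and 33361 in FF, with 0 of 8 called and 2 lower at an unadjusted p under 0.05. Of 12 markers of T and NK cells limma called 0, with 0 at an unadjusted p under 0.05 and a median of -0.05. All 8 endothelial markers had a higher mean in KO, with 0 called and 3 higher at an unadjusted p under 0.05. Limma also called 0 of 10 monocyte and neutrophil, 8 B and plasma cell, 5 erythroid and 6 mast cell and basophil markers.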

How the data were processed

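Per the submitters' processing notes, the authors made the deposited log2 values with RMA in Affymetrix Expression Console. Versions and the log base are not given in the sources used here; the log base was taken from the authors' other table. RMA equalises the distributions of the arrays, which hides any change in total RNA, and shrinks differences of dim probe sets. Their other deposited table holds, per the file headers, log2 averages and a signed linear fold change; how its averages were made is not stated.

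The 28 genes, the lists and the thresholds were chosen with earlier results of these data known. Paralogs and role groups were chosen after the genes' values were seen. All 28 genes are named, with Polr2m, genes nearest the thresholds, called neighbours and up to 3 called genes per list. A few others, Myc among them, were picked after their values were seen.

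KO was compared with FF in limma 3.58.1 (R 4.3.3, lmFit and eBayes, no filter or block), with adjustment over all 29432 genes. Errors after ± are limma standard errors. The fit was tested on simulated data. Of the 28 genes, 27 were found in RefSeq's table for GRCm38.p6, 1 by an older symbol. Alternatives were a replicate block, trend and robust moderation, median centring, cyclic loess, a filter, averaged probe sets, other thresholds and leaving out each array. No batch is labelled, so none could be checked.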

Additional observations from a re-analysis of the deposited data

Results flagged for a closer look

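Of 11400 probe sets that were left out of the gene comparison for lack of a single symbol, 39 also met both thresholds, with both FF arrays under 3.2 and both KO arrays at least 0.8 above them. They are given because the comparison did not use them. Their differences, KO minus FF, ran from 0.90 to 3.38 with a median of 1.36, and nearly as many, 31, met the thresholds in the opposite direction. Of the 39, 37 were not listed in the authors' table, and the 39 held 37 distinct sets of values.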

How the results depend on the processing

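The number of genes chosen moved with its thresholds. It was 13 at an FF limit of 2.8, 49 at 3.5, 93 at a gap of 0.5, 17 at a gap of 1, 17 with the groups exchanged and 126 with the authors' averages, of which 5 were shared. With any single array left out it ran from 60 to 118, since fewer arrays must then pass. Of 252 differences of the 28 genes over 9 alternatives, 17 moved beyond their spread, 15 of them under the authors' averages. None reversed, but where an array is left out the rule itself fixes the sign. By its definition the spread also cannot be exceeded when any single array is left out. Averaged probe sets and the replicate block gave back the same differences for these genes. Only the other alternatives could therefore have moved them. The count of 522 called genes was 30 under the replicate block, 975 with trend and robust moderation, 850 without the 50% dimmest genes, 1235 at an adjusted p under 0.1, and 0 to 0 with any single array left out. The 4 called neighbours became 0 under the replicate block (26 at an unadjusted p under 0.05), 8 with trend and robust moderation, 7 with the filter, 10 at an adjusted p under 0.1 and 0 to 0 with any single array left out (15 to 21 unadjusted). The 21 called list genes became 7 under the block and 0 to 0 with any single array left out (40 to 52 unadjusted). The cause was not tested, apart from the fewer arrays and genes that these settings hold. Replicate numbers are shared between the groups, but deviations of same-numbered arrays correlated at -0.0064, so the number is not taken to pair them. Of 190 values for 19 tested genes, 0 reversed and 80 no longer passed; 12 of these were under the block and the others with an array left out. With so few arrays, dim genes near the background guide are measured least firmly.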
